A study of Mus musculus with 3 samples.

Results

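The 83 genes described here encode the proteins of the cytosolic ribosome in the mouse mammary carcinoma line JC. They were taken by name from the 55471 features of the deposited expression table: every symbol made of Rpl or Rps, a number and at most 1 further letter, plus Rplp0, Rplp1, Rplp2 and Rpsa. The rule gave 32 genes of the small subunit and 51 of the large subunit, on 19 chromosomes. The rule uses names and no threshold on expression. GENCODE M21 lists 80 of them as protein coding and 3 (Rpl6l, Rpl32l and Rps4l) as pseudogenes.

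RNA was sequenced from cultured cells of 3 JC populations, with 1 library each. JC-WT is the line as labelled WT, JC-P came from tumours grown in the mammary fat pad and taken at 14 days, and JC-M3 came from JC-P-derived cells after 3 rounds of tail vein injection, each followed by isolation of lung lesions at 28 days. All 3 carry the genotype label WT and were grown in DMEM with 10% fetal bovine serum before RNA was extracted, so the libraries describe cells back in culture. The treatment label reads metastasis for JC-P as well as JC-M3, although the protocol places JC-P in the mammary fat pad; the protocol was followed here. The labels name no animals or clones behind either derived population.

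A ribosome is assembled from ribosomal RNA and a large set of small, basic proteins, most of which are present once in each particle. Their genes lie scattered over the genome, yet their mRNAs are among the most abundant of growing cells, because each new ribosome needs nearly every protein. Many of these mRNAs begin with a C followed by a run of pyrimidines, the terminal oligopyrimidine (TOP) motif, through which the mTOR pathway and the RNA-binding protein Larp1 set their translation. The same genes have left a large number of processed pseudogenes, reverse-transcribed copies of their mRNAs, in mammalian genomes.

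Promoter sequences of 61 of the 83 members were found in RefSeq (GRCm38.p6), as 73 windows of 300 bases, since some genes have more than 1 listed start. A selection is shown, since the TOP motif lies at the start of the transcript: 6 windows with a pyrimidine run over the start, and 5 without one, of members whose levels are described later. They were chosen after levels and sequences were seen. Each line gives the strand of the gene from 10 bases before to 20 bases after the listed start, and capitals mark the longest run of at least 5 pyrimidines that begins with a C.
Rps27, chr3:90213629-90213658, minus strand: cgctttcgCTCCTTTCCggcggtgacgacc
Rpl15, chr14:18270967-18270996, minus strand: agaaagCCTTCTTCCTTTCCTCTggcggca
Rplp2, chr7:141447641-141447670, plus strand: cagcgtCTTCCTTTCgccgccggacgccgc
Rps10, chr17:27635225-27635254, minus strand: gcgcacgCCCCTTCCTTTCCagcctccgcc
Rps6, chr4:86857348-86857377, minus strand: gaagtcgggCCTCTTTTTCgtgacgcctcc
Rpl35a, chr16:33056472-33056501, plus strand: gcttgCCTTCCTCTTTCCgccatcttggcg
Rps12, chr10:23787190-23787219, minus strand: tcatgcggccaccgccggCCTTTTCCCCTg
Rps23, chr13:90923112-90923141, plus strand: cggctgggcggggCTTCCCgcaatgccttg
Rpl27, chr11:101442235-101442264, plus strand: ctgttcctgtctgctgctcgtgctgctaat
Rpl4, chr9:64173377-64173406, plus strand: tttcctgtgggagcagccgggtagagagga
Rps15, chr10:80292421-80292450, plus strand: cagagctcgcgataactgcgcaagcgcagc
In Rps27, Rpl15, Rplp2, Rps10, Rps6 and Rpl35a the run spans the listed start. Rpl35a has 3 listed starts, and the bases from 10 before to 20 after each of the other 2 hold no run. In Rps12 and Rps23 the run lies downstream of the start, and the printed bases of Rpl27, Rpl4 and Rps15 hold no run that begins in them. Among other members described later, Rpl5, Rpl10, Rpl24, Rpl41 and Rps4x have none in theirs either. The printed bases of Rpl4 open with pyrimidines, so a run that begins before them would not be marked. CTTTCC or CTTTTC does occur within 20 bases of its listed start. The starts used in these cells were not mapped.

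A run of at least 5 pyrimidines starting with a C within 5 bases of the listed start was present in 42.5% of the 73 member windows and in 17.1% of all 32851 promoters in the table. The letters CTTTCC or CTTTTC on the plus strand, within 20 bases of the start, occurred in 20.5% of member windows and 3.32% of all. The 2 searches overlap, since a run can contain these letters. CCGGAAG, the core of the site of ETS-family factors, was found on either strand in 35.6% of member windows against 8.86% of all, and AAGATGG, the core of the YY1 site, in 15.1% against 6.34%. TATAAA on the plus strand between 40 and 15 bases before the start was in none of the 73 member windows and in 1.99% of all promoters. A match describes letters in a window and is not evidence that a factor binds there.

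Read totals recovered from the table ranged from 18093426 to 23386413 per library, and mitochondrially encoded genes took 4.51% to 5.46% of TPM (transcript abundance scaled for gene length and to a common library total). Of 10 epithelial markers, Krt8 and Krt18 alone reached a mean of 1 TPM, and Epcam and Cldn7 were listed at 0 in every library, while all 4 mesenchymal markers were measured. The epithelial-like label rests here on these keratins. Summed epithelial markers stood at 1554 TPM in JC-WT and 1922 in JC-P, with 701 in JC-M3. Nearly all of this was Krt8, at 1503, 1873 and 681 TPM in the same order. Cdh1, with a mean under 1 TPM, had 0, 25 and 21 reads. Fibroblast markers, 6 of 8 measured, summed over the list to 174, 371 and 1005 TPM. Most of the last sum was Col1a1, at 132, 261 and 949 TPM; in JC-M3 over JC-P, 3 of the 6 were above 0 and 3 below, with Col3a1 at 46.0 and 8.76 TPM and Pdgfra at 47.6 and 20.1 TPM in JC-P and JC-M3. Endothelial markers (2 of 6 measured, Kdr listed at 0) summed to 7.91, 35.9 and 3.05 TPM, leukocyte markers (2 of 6 measured; Ptprc, Cd3e and Adgre1 listed at 0) to 14.2, 7.51 and 8.44 TPM, and both erythroid markers were listed at 0. The part of these differences in the values of the ribosomal protein genes was not tested. In such bulk samples, a different mix of cells and a different amount of RNA per cell cannot be told apart.

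The ribosomal protein genes were abundant in all 3 populations and took their largest share in JC-M3. Of the 83 members, 79 reached a mean of 1 TPM over the 3 libraries and are called measured here, as were 14527 features in all; 70 members averaged 100 TPM or more. The members took 5.35% of TPM in JC-WT, beside 5.14% in JC-P and 5.83% in JC-M3. As a share of recovered reads, which does not divide by gene length, they took 2.59% (95% exact binomial interval 2.58% to 2.60%) in JC-WT, then 2.48% (2.47% to 2.49%) in JC-P and 2.75% (2.75% to 2.76%) in JC-M3. The order of the libraries was the same on both scales. These intervals cover counting error only, and the spread between cultures of 1 population is unknown with 1 library each. For the same reason no significance test was run on any comparison, and no p-value is given.

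**Figure D1:**
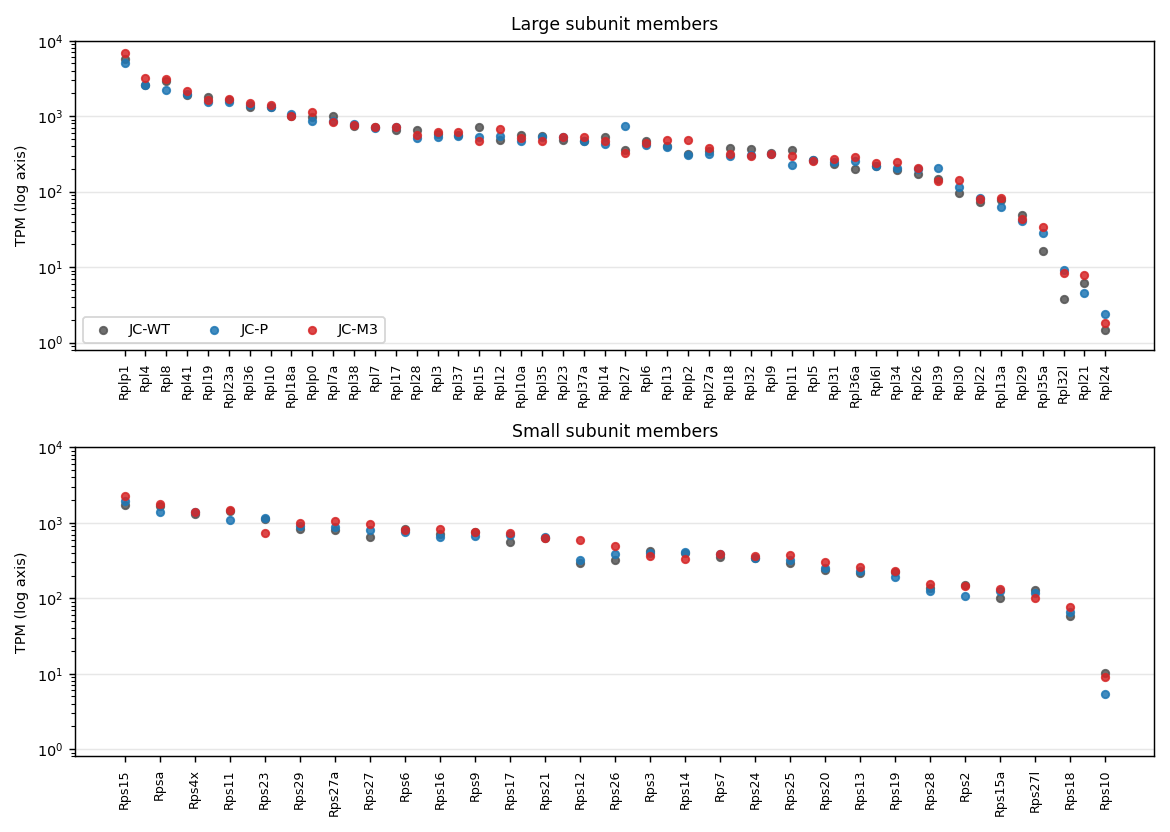
TPM on a log axis of 77 of the 79 measured members in JC-WT (grey), JC-P (blue) and JC-M3 (red), 1 point per library, with the large subunit above and the small subunit below, each sorted by mean level. Most points lie above 100 TPM, and the lowest are Rpl24, Rps10, Rpl21 and Rpl32l.

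Levels differed far more between members than between libraries. Where the library is not named beside a value, the order is JC-WT, JC-P, JC-M3. Rplp1, 1 of the acidic proteins of the stalk that recruits elongation factors, was highest at 5709 TPM in JC-WT and 5137 in JC-P, with 6873 in JC-M3. Next came Rpl4, which lines the tunnel through which the new chain leaves, at 2580, 2559 and 3171 TPM, and Rpl8, near the site of peptide bond formation, at 2889, 2194 and 3073 TPM. Rpl41, the smallest of the proteins, stood at 1890, 1978 and 2176 TPM, and Rps15, whose tail reaches toward the decoding site, at 1723, 1922 and 2292 TPM. The median member had 464 TPM in JC-WT, beside 427 in JC-P and 480 in JC-M3. The median measured feature had 19.2, 19.5 and 19.2 TPM in the same order. Across the 79 measured members, Spearman's rho between log2 levels of 2 libraries was 0.97 to 0.98, a description over genes that share library depth and gene length.

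Gene length enters these levels. The merged exon length used for scaling ranged from 383 bases (Rpl36) to 6270 bases (Rps15a), and members with longer merged exons had lower TPM (rho -0.36 over 79 genes). The main (APPRIS principal) transcript of a member had a median of 827 bases, against a median merged length of 1734, so TPM of members with long alternative exons is lowered by construction. Each gene has the same length in every library, so ratios between libraries do not carry this.

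The first comparison sets cells recovered from mammary fat pad tumours, JC-P, beside JC-WT. The members were on balance level between these libraries. Ratios here are log2 ratios of TPM + 0.5, and their median over the 79 measured members was -0.00, beside 0.01 over all 14527 measured features and -0.07 over the 1875 abundant ones (mean of 100 TPM or more). Of the 79, 38 lay above 0, where 50.9% of all measured features and 40.7% of the abundant ones did. At least 2-fold higher in JC-P were 2 members, Rpl32l and Rpl27, where 4.76% of measured features were; none was at least 2-fold lower, where 2.33% of features were. The sum of the members was 53498 TPM in JC-WT and 51380 in JC-P, and Rpl8 and Rplp1 were the largest parts of that difference.

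The second comparison sets the lung-selected cells, JC-M3, beside JC-P, from which they were derived. Here the members stood on balance slightly higher in JC-M3. The median log2 ratio was 0.14, a factor of 1.10, beside -0.01 over all measured features and 0.03 over the abundant ones. Of the 79, 60 were above 0, against 49.2% of measured features and 53.6% of the abundant ones. None was at least 2-fold higher, where 3.82% of features were, and 1, Rpl27, was at least 2-fold lower, where 5.38% were. The summed level went from 51380 to 58350 TPM, and Rplp1 made up 24.9% of that difference, Rpl8 12.6% and Rpl4 8.77%.

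The third comparison, JC-M3 beside JC-WT, shares a library with each of the others and adds no independent data. The median over the members was 0.11, beside 0.00 over all measured features and -0.03 over the abundant ones, and 53 of 79 members lay above 0, against 50.1% of features. At least 2-fold higher were 3 members, Rpl32l, Rpl35a and Rps12, where 6.14% of measured features were, and none was at least 2-fold lower, where 5.27% were. Just outside the threshold lay Rplp2 at 0.63 and Rps26 at 0.60.

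**Figure D2:**
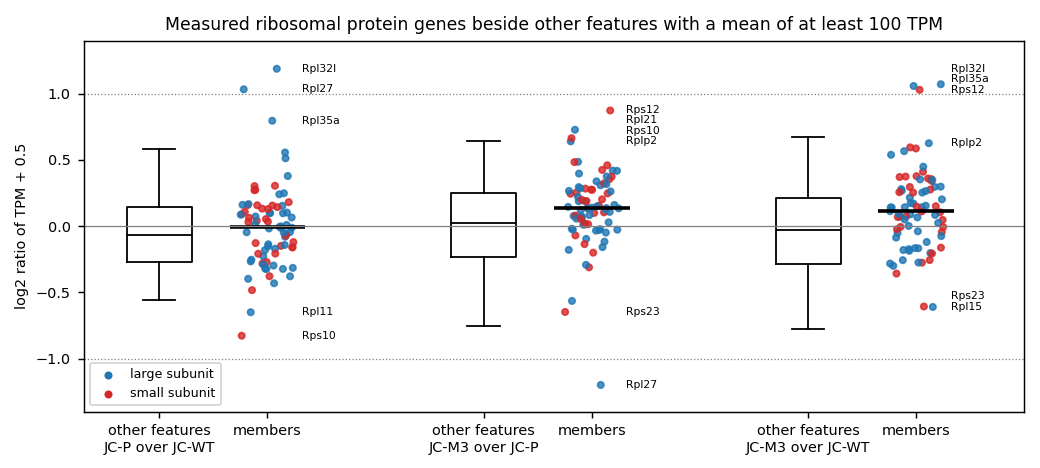
Log2 ratios of TPM + 0.5 for each comparison: boxes show the quartiles and median of the 1805 abundant features that are no members (mean of 100 TPM or more), with whiskers at the 5th and 95th percentiles, and points show the 79 measured members (blue, large subunit; red, small subunit) with a bar at their median. Dotted lines mark a 2-fold ratio, and the members' median is -0.00, 0.14 and 0.11 from left to right.

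The members kept closer together than measured features at large. The SD of their log2 ratios was 0.32, 0.29 and 0.32 in the 3 comparisons, in the order given, against 0.61, 0.69 and 0.76 over all measured features and 0.37, 0.54 and 0.54 over the abundant ones. This was not particular to them. The SD was 0.23, 0.28 and 0.31 over 37 translation initiation factors. Over 77 mitochondrial ribosomal protein genes it was 0.26, 0.31 and 0.37. Within 1.5-fold lay 74, 73 and 71 of the 79. Of the 14527 measured features 11787, 11137 and 10675 did, and of the 1875 abundant ones 1710, 1609 and 1572. At least 1.5-fold higher were 3, 4 and 6 members, where 12%, 10% and 14% of measured features were. In each comparison 2 were lower by as much, where 6.9%, 13.3% and 12.5% of features were. Of the 1875 abundant features, 92, 121 and 136 were higher by as much and 73, 145 and 167 lower. Counting error was small beside this spread for most members: the median width of the 95% counting interval of a member's log2 ratio was 0.10 to 0.11. In JC-P over JC-WT, 29 members had an interval wholly above 0, 32 wholly below and 18 across it. For JC-M3 over JC-P the counts were 53, 10 and 16. In the comparison of JC-M3 with JC-WT they were 47, 18 and 14. Such counts are not given here for other features, so they do not show whether the members differ from those.

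Of the 79 members, 47 (59.5%) were highest in JC-M3, against 35.3% of all measured features and 36.8% of the abundant ones. JC-P held the lowest of the 3 values for 34 members (43.0%, against 29.7% of all and 37.2% of the abundant features). It held the highest for 12 (15.2%, against 31.5% and 24.3%). The order JC-WT, JC-P, JC-M3 from low to high was met by 26 members (32.9%, against 19.4% of all and 16.4% of the abundant features). The opposite order was met by 7 (8.86%, against 19.2% and 22.1%).

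The subunits were compared by their medians, without a test. The median ratio of the 31 measured small subunit genes was 0.04, 0.20 and 0.15 in the comparisons in the same order, and that of the 48 large subunit genes was -0.02, 0.13 and 0.10. The medians lay 0.04 to 0.07 apart. In JC-P over JC-WT both were close to 0, with 18 of 31 small and 20 of 48 large subunit genes above it. Of all measured features 50.9% were above 0 there, and of the abundant ones 40.7%.

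The stalk proteins, which form the landing site for elongation factors on the large subunit, were all lowest in JC-P and highest in JC-M3. Rplp0, the base of the stalk, stood at 973 TPM in JC-WT, then 858 in JC-P and 1130 in JC-M3. Rplp2, the partner of Rplp1, stood at 310, 308 and 480 TPM. Its ratio of JC-M3 over JC-P was 0.64 (95% counting interval 0.59 to 0.70), against 0.42 (0.39 to 0.45) for Rplp1 and 0.40 (0.36 to 0.44) for Rplp0. Between JC-P and JC-WT, Rplp2 was -0.01 with an interval of -0.08 to 0.05 that crosses 0, while Rplp1 was -0.15 and Rplp0 -0.18. For Rplp0, annotated pseudogenes that share its sequence held 61.8% of the reads of gene and copies together. With them added, its ratio was -0.29 in JC-P over JC-WT and 0.34 in JC-M3 over JC-P. In JC-M3 over JC-WT it was 0.04, against 0.22 for its own row.

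Rpl5 and Rpl11 travel with 5S ribosomal RNA and, outside the ribosome, bind and inhibit Mdm2, the ubiquitin ligase of p53. Rpl5 was level, at 262, 264 and 255 TPM, with intervals across 0 in all 3 comparisons. Rpl11 was 357 TPM in JC-WT and 228 in JC-P, with 295 in JC-M3. That is a log2 ratio of -0.65 (-0.71 to -0.59) in JC-P over JC-WT, the lowest among members that average 10 TPM or more. Trp53, which encodes p53, was at 213, 139 and 160 TPM and Mdm2 at 46.4, 59.5 and 60.4 TPM.

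Of 4 members along the decoding and tRNA path, 3 were highest in JC-M3 and Rps23 was lowest there. Rps23, which sits at the decoding centre, stood at 1112 TPM in JC-WT, beside 1145 in JC-P and 731 in JC-M3. JC-M3 was thus the low library, at -0.65 (-0.69 to -0.60) against JC-P and -0.61 against JC-WT. Rpl10, which reaches toward the tRNA site and is the last large subunit protein to be joined, differed little, at 1334, 1332 and 1402 TPM. Rps27a, made as a fusion with ubiquitin, was 806, 884 and 1048 TPM, and Rps15 had the values given, with ratios of JC-M3 over JC-WT of 0.38 (0.34 to 0.42) for Rps27a and 0.41 (0.36 to 0.46) for Rps15.

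Rps12, on the beak of the small subunit, had the highest ratio of JC-M3 over JC-P of all measured members. It stood at 290 TPM in JC-WT, then 323 in JC-P and 593 in JC-M3, with log2 ratios of 0.87 (0.82 to 0.93) against JC-P and 1.03 (0.97 to 1.09) against JC-WT. Of 11 members around the mRNA entry and the head of the small subunit, 10 were above 0 in JC-M3 over JC-P, with a median of 0.28, and Rps3 at -0.14 was the other; 60 of all 79 members and 49.2% of measured features were above 0 there. Rpsa, also known as the laminin receptor, was among the abundant ones, at 1682, 1384 and 1771 TPM.

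Rps26 and Rps27 were ordered from JC-WT over JC-P to JC-M3. Rps26, at the mRNA exit, stood at 323, 390 and 488 TPM, and Rps27 at 649, 801 and 975 TPM. Their ratios of JC-M3 over JC-WT were 0.60 (0.53 to 0.66) and 0.59 (0.53 to 0.65). Rps27l, a paralog of Rps27 and a known target of p53, had the opposite order, at 129, 116 and 101 TPM. For JC-M3 over JC-WT this gives -0.36 (-0.53 to -0.19), on 565 and 567 reads.

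In the large subunit, Rpl27 was the only member averaging 10 TPM or more that was at least 2-fold apart in a comparison with JC-P. It stood at 360 TPM in JC-WT and 737 in JC-P, with 321 in JC-M3, on 2963, 7431 and 3378 reads. The ratio was 1.03 (0.97 to 1.10) for JC-P over JC-WT and -1.20 (-1.26 to -1.14) for JC-M3 over JC-P. With the 11 annotated pseudogenes that share its sequence added to it, the ratios were 0.95 and -1.10.

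Rpl39, a small protein of the exit tunnel encoded on chromosome X, had the same direction with a smaller size, at 145, 207 and 140 TPM. Its ratios were 0.51 (0.41 to 0.62) and -0.56 (-0.67 to -0.47). None of the other 3 members on chromosome X was lower in JC-M3 than in JC-P: Rps4x stood at 1305, 1390 and 1404 TPM, Rpl36a at 197, 257 and 287 TPM, and Rpl10 as given. Rpl36a was the highest of these in JC-M3 over JC-WT, at 0.54 (0.46 to 0.63).

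Rpl15 was highest in JC-WT. It stood at 711 TPM there, 527 in JC-P and 466 in JC-M3, with a ratio of -0.61 (-0.65 to -0.57) for JC-M3 over JC-WT. Rpl35a had the opposite order at a far lower level, 16.1, 28.4 and 34.1 TPM, and a ratio of 1.06 (0.89 to 1.28) for JC-M3 over JC-WT on 305 and 825 reads. Both are among 12 genes listed here as mutated in Diamond-Blackfan anaemia, an inherited failure of red cell formation. The median of those 12 was 0.08, 0.12 and 0.13 in the 3 comparisons, near that of all members.

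Rps6, whose product is phosphorylated by the S6 kinases downstream of mTOR, was lowest in JC-P, at 839, 756 and 813 TPM. Its ratio was -0.15 (-0.20 to -0.10) in JC-P over JC-WT and 0.10 (0.06 to 0.15) in JC-M3 over JC-P. Rpl13a, which also acts in a translation-silencing complex after interferon, stood at 78.0, 62.3 and 83.4 TPM. Rpl22, an RNA-binding protein of the large subunit, was 72.3, 81.2 and 79.8 TPM. Its paralog Rpl22l1, outside the naming rule, was highest in JC-P at 150 TPM, against 93.8 in JC-WT and 82.1 in JC-M3.

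Of the members that are tissue paralogs or annotated pseudogenes, 4 were near or at 0. Rpl10l and Rpl39l, paralogs used in the testis, had 0 reads in every library, which at these depths allows up to 3 reads in each. Rpl3l, the paralog of heart and skeletal muscle, had 1 read in JC-WT and 0 in the others, and the pseudogene Rps4l had 1 read in JC-P and 0 in the others. These 4 entered no ratio. The pseudogene Rpl32l passed the filter on 8, 24 and 23 reads, or 3.74, 9.15 and 8.40 TPM. Its ratio of 1.19 in JC-P over JC-WT carries an interval of 0.09 to 2.66, and that of 1.07 in JC-M3 over JC-WT one of -0.04 to 2.54. Rpl6l, also annotated as a pseudogene, was listed at 217, 219 and 241 TPM.

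Reads of many families were listed under pseudogenes, not under the parent gene. By shared 50-base windows, 1090 pseudogene rows of the table were assigned to 80 members. Together they held 74887 reads in JC-WT, beside 90063 in JC-P and 104892 in JC-M3, equal to 16.0%, 16.4% and 16.3% of the reads of the members. The highest was Gm15772, a copy of Rpl26, at 3259, 3628 and 3645 TPM, while Rpl26 itself was listed at 169, 200 and 208 TPM. A copy of Rplp0, Gm8730, stood at 2404, 1854 and 2243 TPM, and Gm12191, a copy of Rpl30, at 1862, 1987 and 2182 TPM. Whether reads that fit a parent and a copy equally were shared, dropped or assigned to the copy is not given in the sources used here, so neither row alone can be read as the level of the family.

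**Figure D3:**
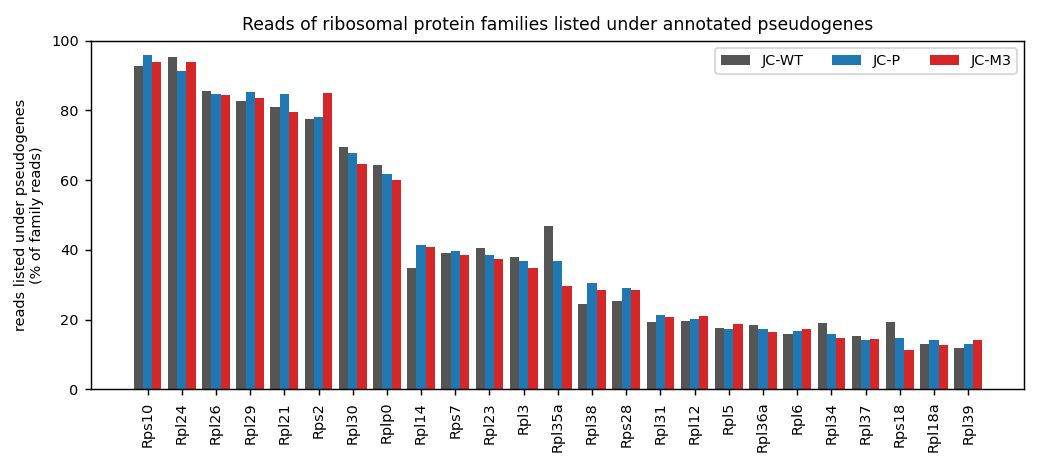
Percent of each family's recovered reads that are listed under annotated pseudogenes, in JC-WT (grey), JC-P (blue) and JC-M3 (red), for the 25 measured members with the highest percent. Rps10, Rpl24, Rpl26, Rpl29, Rpl21 and Rps2 have over 80% of their family's reads outside the parent gene when the libraries are pooled.

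Rps10, a protein of the small subunit head, shows the size of this. Its own row held 125, 83 and 142 reads (10.1, 5.47 and 8.96 TPM), and its pseudogenes held 1592, 1950 and 2138 reads, 94.2% of the family. The ratio of the parent row in JC-P over JC-WT was -0.83 (-1.30 to -0.47), and with the pseudogene rows added it was -0.05. For Rpl24, which is mutated in the mouse mutant Belly spot and tail, pseudogenes held 93.6% of the family's reads, with 8, 16 and 13 reads left in the parent row. Rpl21 had 111, 102 and 184 reads of its own, 6.08, 4.57 and 7.89 TPM, with 81.5% of the family under 81 pseudogenes. Its ratio of 0.73 in JC-M3 over JC-P was 0.36 with them. Rpl29 was at 49.5, 40.4 and 44.0 TPM, with 83.9% of its family under pseudogenes.

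Rps2, whose product lines the mRNA entry channel, behaved differently from its copies between JC-WT and JC-M3. The parent stood at 148, 106 and 146 TPM, while the transcribed pseudogene Rps2-ps10 stood at 800, 596 and 1395 TPM. From JC-WT to JC-M3 the parent had a ratio of -0.02 (-0.12 to 0.08), against 0.54 for the family. For JC-M3 over JC-P it was 0.46 (0.36 to 0.57), against 0.99 for the family. Rpl35a had a family ratio of 0.66 in JC-M3 over JC-WT, against 1.06 for its own row. With all pseudogene rows added, the members took 7.72% of TPM in JC-WT, then 7.62% in JC-P and 8.45% in JC-M3.

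Sequence shared with other genes was the rule among the members. For 80 of 83, at least 1 window of 50 bases also occurs in a transcript of another gene. In the main transcript, which 75 members have, the median share of such windows was 41.8%, and in 32 it was at least 50%, with 98.6% in Rps27 the highest. Among measured members the share of the main transcript had little relation to the ratios (rho 0.11, 0.08 and 0.13 over 72 genes). A separate case is a parent whose main transcript shares exon bases with another gene on the same strand, small RNA genes aside. This held for 3 of the 75: Rpl24 with 71.5% of its main transcript inside exons of Gm28037, Rpl13a with 59.3% inside Gm45713, and Rps10 with 47.9% inside the readthrough gene RPS10-NUDT3. Those 3 other genes had 0 reads in every library, and 2 of the 3 members are among the 4 measured ones with a mean under 10 TPM. The part of the overlap in these levels was not tested. On the other strand, 18 members overlap exons of another gene, and since the strand setting of the counting is not given, reads of such pairs cannot be told apart.

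Position on the chromosome was compared because several of the divergent members had neighbours that differed in the same direction. The comparison was chosen after the values were seen. Rps23 lies at chr13:90922958-90924950 (GRCm38), and all 24 measured protein-coding genes within 5 Mb of it were below 0 in JC-M3 over JC-P, with a median of -0.85. Its nearest measured neighbours were Tmem167, at 38.2, 46.3 and 23.1 TPM, and Atg10, at 8.78, 10.7 and 5.35 TPM. Over the measured protein-coding genes of chromosome 13 the median was -0.52, the lowest of the 19 chromosomes that carry members.

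Around Rps12 (chr10:23785183-23787275), 20 of 24 genes were above 0 in JC-M3 over JC-P, with a median of 0.34. Around Rpl39 (chrX:37082520-37085402), 18 of 22 genes were above 0 in JC-P over JC-WT, with a median of 0.35, and 18 of 22 were below 0 in JC-M3 over JC-P, with a median of -0.49. These are the directions of Rps12 and Rpl39. The median of the whole chromosome 10 was 0.22 in JC-M3 over JC-P. For chromosome X it was 0.24 in JC-P over JC-WT and -0.15 in JC-M3 over JC-P. Of all measured features, 50.9% were above 0 in JC-P over JC-WT. In JC-M3 over JC-P, 49.2% were above 0 and 50.7% below. Around Rpl15 (chr14:18267823-18271391) 30 of 41 genes were below 0 in JC-M3 over JC-WT, with a median of -0.28. There the median of the whole chromosome 14 was -0.29, and 49.7% of all measured features were below 0. In JC-P over JC-WT, where Rpl15 was at -0.43, 22 of the 41 were above 0 and 19 below, with a median of 0.01. No DNA copy number was measured in these libraries, and its part in these values was not tested.

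Rpl27 (chr11:101442298-101445529) was unlike these. The median of 162 genes around it was -0.09 in JC-P over JC-WT and -0.10 in JC-M3 over JC-P, beside 1.03 and -1.20 for the member. Of its nearest neighbours, Rundc1 stood at 43.9, 38.0 and 36.9 TPM, and Ifi35, induced by interferon, at 219, 322 and 280 TPM. Neither had a ratio near that of Rpl27. For Rplp2 (chr7:141447370-141451585) the region median in JC-M3 over JC-P was 0.03, beside 0.64 for the member.

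**Figure D4:**
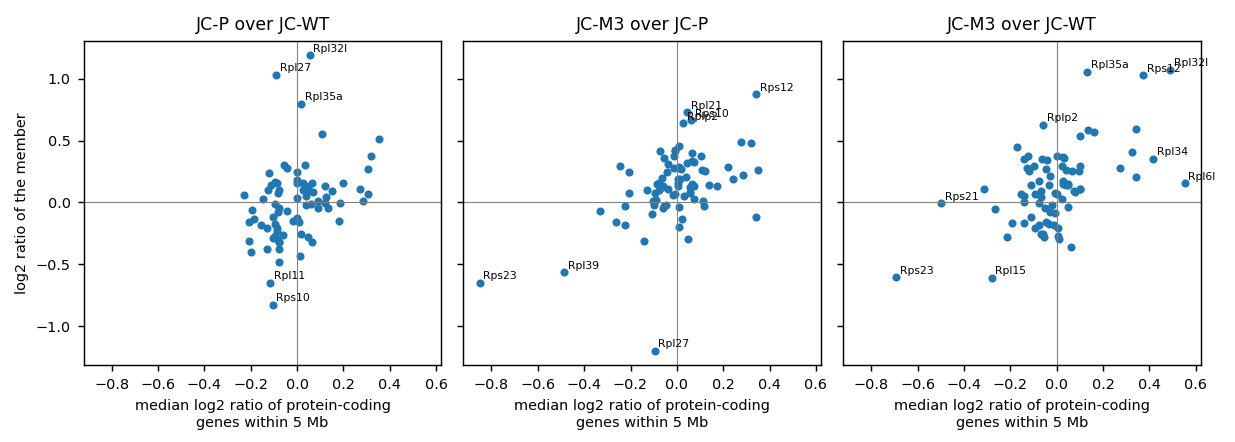
Log2 ratio of each of the 79 measured members (vertical axis) against the median log2 ratio of the measured protein-coding genes within 5 Mb of it (horizontal axis), 1 panel per comparison. Rps23 and Rpl39 are at the lower left in the middle panel and Rps12 at the upper right, while Rpl27 lies near 0 on the horizontal axis.

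Over the 79 members, the ratio of the member and the median of its region had a Spearman's rho of 0.40, 0.43 and 0.44 in the comparisons, in the order of the panels. Members close to each other share neighbours, so the points are not independent. With the median of the whole chromosome subtracted from each ratio, the members' medians are among the values given with the other settings. Other properties had weaker relations: GC content had rho of -0.25, 0.15 and -0.12, and merged exon length -0.12, 0.18 and 0.01. A snoRNA, a small RNA that guides modification of ribosomal RNA, lies inside 29 of the 83 members, and rho with the number of snoRNAs was -0.17, 0.25 and 0.05.

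The promoter letters were set beside the ratios for the 58 measured members with a RefSeq window. The 14 with CTTTCC or CTTTTC near the start had a median of 0.28 in JC-M3 over JC-P, and the 44 without had 0.12. In JC-M3 over JC-WT the medians of these groups were 0.12 and 0.13. For the pyrimidine run at the start, the 29 with it had a median of 0.13 in JC-M3 over JC-P and the 29 without it 0.16, while in JC-M3 over JC-WT the medians were -0.01 and 0.15. The 9 with AAGATGG had medians of 0.17, 0.26 and 0.25 in the 3 comparisons, and the 49 without it -0.01, 0.14 and 0.07. For CCGGAAG, 24 members with it had medians of -0.03, 0.14 and 0.06, and 34 without it 0.00, 0.13 and 0.14. These are descriptions of small groups.

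Ribosomal protein genes that the naming rule misses were measured in all 7 cases looked at. Rps3a1 stood at 1984, 2055 and 2497 TPM. Rack1, a signalling scaffold on the head of the small subunit, was highest in JC-WT, at 624 TPM against 520 in JC-P and 516 in JC-M3. Fau, which encodes a ubiquitin-like fusion with a small subunit protein, had the same order, at 597, 498 and 497 TPM. Rpl7l1 stood at 161, 120 and 129 TPM and Rpl36al at 3.72, 2.14 and 3.66 TPM.

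In the 2 comparisons with JC-P, the nucleolar biogenesis factors had medians further from 0 than the ribosomal proteins had, with JC-P the low library. All 60 nucleolar biogenesis factors on the list were measured. In JC-P over JC-WT, 52 of them lay below 0, where 49% of measured features did, with a median of -0.30, beside -0.00 for the ribosomal proteins. In JC-M3 over JC-P, 54 lay above 0, where 49.2% of measured features did, with a median of 0.41, beside 0.14 for the ribosomal proteins. In JC-M3 over JC-WT the median was 0.13, beside 0.11. None was at least 2-fold apart in any comparison, where 4.76%, 3.82% and 6.14% of all measured features were higher and 2.33%, 5.38% and 5.27% lower. The highest ratio of JC-M3 over JC-P was that of Mrto4, which holds the place of Rplp0 during assembly, at 86.1, 55.4 and 111 TPM. Rrs1, which helps Rpl5 and Rpl11 enter the particle, went the other way, at 141, 186 and 108 TPM. Rrp12, an export factor, had the lowest ratio of JC-P over JC-WT, at 41.3, 22.7 and 37.2 TPM, while the abundant nucleolar protein Npm1 stood at 764, 695 and 941 TPM.

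**Figure D5:**
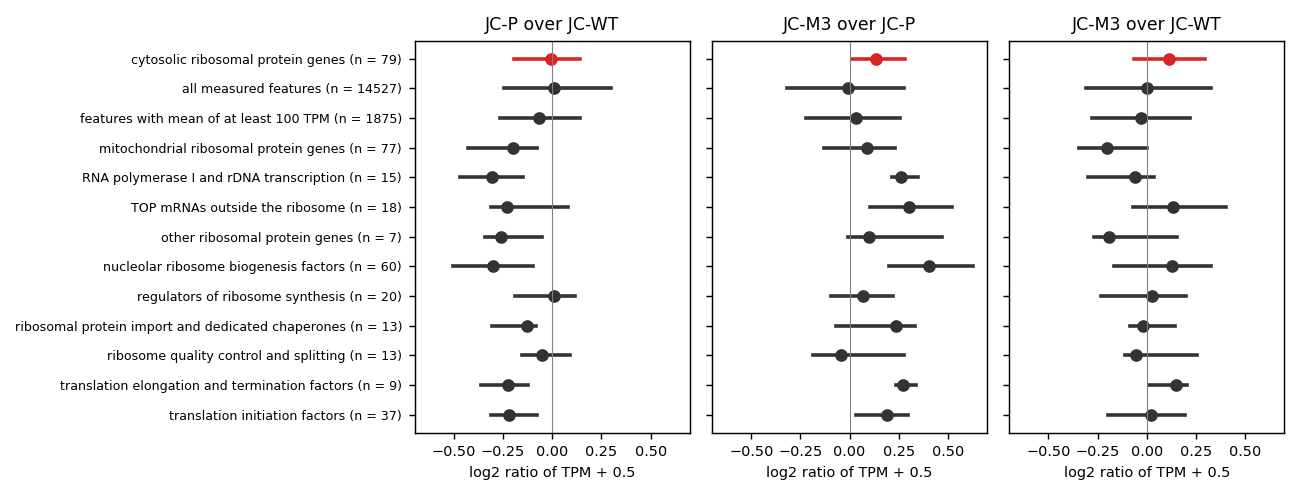
Median (point) and quartiles (line) of the log2 ratio of TPM + 0.5 for the ribosomal protein genes (red) and for other sets of genes (black), 1 panel per comparison, with the number of measured genes of each set beside its name. In the left panel the biogenesis factors, RNA polymerase I genes and translation factors have medians between -0.31 and -0.22, and the ribosomal proteins -0.00.

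RNA polymerase I and its factors, which transcribe ribosomal RNA, had 14 of 15 measured genes below 0 in JC-P over JC-WT (median -0.31) and 12 of 15 above 0 in JC-M3 over JC-P (median 0.26), where 49% of all measured features were below 0 in the former and 49.2% above 0 in the latter. From JC-WT to JC-M3, 7 were above 0 and 8 below, with a median of -0.06. Polr1b, a core subunit of the polymerase, stood at 27.4, 16.6 and 19.8 TPM. Of 37 initiation factors, 31 were below 0 in JC-P over JC-WT (median -0.22) and 28 above 0 in JC-M3 over JC-P (median 0.19). Of 9 measured elongation and termination factors the counts were 7 and 8, with medians of -0.23 and 0.27, against the same shares of all features. For JC-M3 over JC-WT the medians of these sets were 0.02 and 0.15. Eef1a1, which brings tRNA to the ribosome, stood at 10914 TPM in JC-WT and 9328 in JC-P, with 11002 in JC-M3.

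Other mRNAs with a TOP motif had a median of -0.23 in JC-P over JC-WT and 0.30 in JC-M3 over JC-P over 18 genes, and 0.13 in JC-M3 over JC-WT. Of these 18, 13 are also in the sets of initiation, elongation, biogenesis or import and chaperone genes, so the sets are not separate. They differed among themselves: the snoRNA host Snhg1 was lowest in JC-P, with ratios of -0.48 and 1.12, and Tpt1, an abundant TOP mRNA, was highest there, at 1568, 2194 and 1164 TPM. The 13 genes for import and dedicated chaperones of ribosomal proteins had medians of -0.13, 0.24 and -0.02. Among them Grwd1, which escorts Rpl3, was lowest in JC-P, at 156, 84.7 and 147 TPM. The 13 measured quality control and splitting genes were close to level, at -0.05, -0.04 and -0.05.

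Among regulators of ribosome synthesis, the median of 20 measured genes was 0.01, 0.07 and 0.03 in the comparisons. Myc, a transcription factor that drives ribosome genes, stood at 123 TPM in JC-WT, beside 82.7 in JC-P and 105 in JC-M3. Larp1, the binder of TOP mRNAs, stood at 168, 166 and 185 TPM.

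For the ribosome of the mitochondrion the median of JC-M3 over JC-WT lay on the other side of 0. Of 78 mitochondrial ribosomal protein genes, 77 were measured, and their median was -0.20 in JC-P over JC-WT, 0.09 in JC-M3 over JC-P and -0.20 in JC-M3 over JC-WT. In the last of these, 58 of 77 were below 0, against 26 of 79 of the cytosolic genes and 49.7% of all measured features. They took 0.558% of TPM in JC-WT, then 0.459% in JC-P and 0.484% in JC-M3. With 1 library per population, the size of this difference between the sets has no replicate check.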

How the data were processed

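The deposited table gives TPM made by the authors, per the file headers, in 1 column for each of 3 libraries. Per the submitters' processing notes, FastQC 0.11.9, STAR 2.7.9a and featureCounts were used, with builds mm10 and GRCm38. Not given in the sources used here are the annotation release, strand setting and handling of multiply mapped reads. Merged exon lengths came from GENCODE M21 and matched 55230 features. Times TPM, they were multiples of 1 step per library, which gave whole reads within 0.01 for 98.4% to 98.5% of expressed features and for all 83 members. Log2 ratios use TPM + 0.5 among features averaging 1 TPM or more, which compresses ratios of low genes; called means at least 2-fold. Intervals of ratios are exact conditional (Clopper-Pearson, 95%) on recovered reads and cover counting error only. They are for the ratio without the added 0.5, so for low genes they are not centred on the printed ratio. They treat reads as independent, which duplicates are not, so they can be too narrow. Recovery and intervals were run on simulated Poisson counts with the same exon lengths. That simulation held no duplicates or multiply mapped reads, so it does not show how the intervals perform on these libraries. Pseudogenes were assigned to the member sharing most 50-base windows.

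The members and gene lists were chosen with earlier results of these data known. Named members are the 4 highest and 4 lowest ratios per comparison and the 5 highest and 5 lowest levels (mean of at least 10 TPM), all 2-fold apart or around that threshold, all with a mean under 10 TPM, and those in small role groups; of each list, the highest and lowest ratios. Others were named after their values were seen. A few single genes are counted in the totals but not reported here. Python 3.11.15, pandas 2.3.3 and scipy 1.17.1 were used.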

Additional observations from a re-analysis of the deposited data

How the results depend on the processing

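No paired analysis was possible because each population has 1 library and no result comes from a test. Over 13 other settings (pseudocounts, scalings, filters, subsets of members, pseudogene rows added, chromosome medians subtracted), the members' median was 0.12 to 0.15 in JC-M3 over JC-P and 0.098 to 0.13 in JC-M3 over JC-WT, and -0.015 to 0.0089 in JC-P over JC-WT, where 2 settings gave the other sign. No scaling moved the median of all features by over 0.014. Members at least 2-fold higher in JC-P over JC-WT numbered 1 in place of 2 with a pseudocount of 2, a mean of at least 10 TPM, pseudogene rows added, protein-coding members only, or members with under 50% of main transcript windows shared. In JC-M3 over JC-WT they numbered 1 in place of 3 with a pseudocount of 2 or that last subset. At 1.5-fold, the lower members numbered 2 in each comparison, and the higher ones 4 in JC-M3 over JC-P and 6 in JC-M3 over JC-WT. In the subset with under 50% of main transcript windows shared, chosen after seeing the data as were the protein-coding subset and the share of reads, 18, 28 and 27 of 40 members lay above 0 (45%, 70% and 67.5%). The members' share of TPM, in the order JC-WT, JC-P, JC-M3, was 4.23%, 4.10% and 4.59% for members with under 50% of all windows shared, 5.70%, 5.47% and 6.21% with the 7 missed genes added, 7.72%, 7.62% and 8.45% with pseudogene rows, 5.61%, 5.43% and 6.15% without mitochondrially encoded genes, and 2.59%, 2.48% and 2.75% of recovered reads. JC-M3 was highest and JC-P lowest in each. Depth limits the 4 measured members with a mean under 10 TPM, which had 8 to 184 reads in a library. Rows of pseudogenes limit others: added to the parent, they moved Rps2 in JC-M3 over JC-WT from -0.02 to 0.54.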
